A study of Mus musculus with 15 samples.

Results

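Mouse brain RNA carrying both kainic acid treatment and an APOE condition (the group APOE_H) was compared with untreated brain RNA (the group CTRL_L). The comparison covers 3 libraries against 3, taken from 15 libraries in all. It takes every entry of the expression table that reached 1 TPM in at least 3 of these 6 libraries, which gave 12821 of 65964 entries. TPM is a transcript abundance scaled for transcript length and for the total of each library. An entry is an annotated gene (11202 of those tested had a symbol and 111 an identifier only) or an assembled locus without a gene name (1508).

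All libraries were from C57BL/6 brain, and the labels give every one of them, untreated libraries included, as a KA-induced TLE model. KA stands for kainic acid, an agonist of glutamate receptors that provokes seizures in rodents, and TLE is the usual abbreviation of temporal lobe epilepsy. CTRL_L libraries carry the treatment label Untreated, and APOE_H libraries carry a label naming KA with APOE. The labels define neither the letters L and H nor how APOE was manipulated, and they give no age, no sex and no link from library to animal. The p-values therefore reflect the spread among these libraries alone, and that spread may be technical. Treatment with KA, the APOE condition and the letter all differ between the 2 groups, and no untreated H group exists, so their parts in any difference cannot be told apart.

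Apolipoprotein E is a lipid carrier that astrocytes secrete in the healthy brain and that microglia, the resident macrophages of the brain, switch on when they respond to injury. In that response microglia are known to lower their resting receptors and to raise a set of lysosomal, lipid-handling and adhesion genes, often called the disease-associated state, part of which depends on the receptor Trem2. Lysosomes hold the acid proteases (cathepsins) and glycosidases that break down engulfed material.

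The libraries were checked against cell markers before any comparison. Although the labelled tissue is brain, of 10 neuronal markers only Syt1 reached the level for testing, and the neuronal sum lay between 2.53 and 66.5 TPM in CTRL_L and between 0.1 and 19.3 TPM in APOE_H. The 10 astrocyte markers summed to 188 to 335 TPM in CTRL_L and 86.5 to 106 TPM in APOE_H. Among them the glutamate transporter Slc1a3 was at 103.5, 129.21 and 81.32 TPM in CTRL_L and at 67.95, 43.9 and 76.01 TPM in APOE_H, the aldolase Aldoc at 170.24, 23.91 and 104.64 TPM and at 0, 47.95 and 0 TPM, and Gfap, the astrocyte filament gene, was listed at 0 in CTRL_L and at 2.45, 0 and 3.53 TPM in APOE_H. The 8 oligodendrocyte markers summed to 103 to 185 TPM in CTRL_L and 63.0 to 111 TPM in APOE_H, with the myelin gene Mbp at 105.51, 142.52 and 75.21 TPM and at 21.88, 22.03 and 58.34 TPM, while Mog, Cldn11, Olig1, Olig2 and Pdgfra were listed at 0 in all 6. By contrast, all 18 resting microglia markers were at 1 TPM or more in every one of the 6 libraries, and their sum lay between 11308 and 35696 TPM in CTRL_L and between 15185 and 25636 TPM in APOE_H. The RNA thus carried microglial markers throughout, with far lower sums of astrocyte and oligodendrocyte markers and almost none of the defining neuronal ones. It also carried choroid plexus markers. The 12 of them summed to 139, 39718 and 24215 TPM in CTRL_L. In APOE_H they summed to 38583 to 59380 TPM, above the microglial sums. In such bulk RNA, fewer cells of a type and less RNA per cell cannot be told apart.

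The 2 groups also differed as libraries. Entries at 1 TPM or more numbered 10890 ± 256 (SD, n = 3) in CTRL_L and 14026 ± 1337 in APOE_H. Assembled loci took 7.84 ± 1.11% of the total in CTRL_L and 2.83 ± 0.542% in APOE_H. Rank correlations across tested entries ran from 0.682 to 0.783 among APOE_H libraries, from 0.428 to 0.457 among CTRL_L libraries and from 0.329 to 0.467 between the groups. TPM keeps no depth, and an exact 0 may be a failed estimate: of 30 genes that every cell uses, Pgk1 was listed at 0 in CTRL_L replicate 1 and Snrpd3 in CTRL_L replicate 2, and none in APOE_H. The part of these library differences in the results was not tested.

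Differences were tested on log2(TPM + 1) with limma over all 15 libraries in 5 groups, and a gene was called where its Benjamini-Hochberg adjusted p was under 0.05. Of 12821 entries, 567 (4.42%) were higher in APOE_H and 171 (1.33%) lower, 5.76% in all. The median difference over all tested entries was 0.47 on the log2 scale, with 7739 entries above 0 and 5082 below. Under quantile normalization 246 entries were called higher and 207 lower. An unadjusted p under 0.05 was reached by 2556 entries (19.9%). The 2 sets of calls differed in where their levels lay, as the scatter of mean levels shows. Of the 567 higher entries, 513 (90.48%) stayed under 1 TPM in 2 or more CTRL_L libraries, against 25.47% of all tested entries, and 242 were listed at 0 in all 3. Of the 171 lower entries, 122 had a mean of 5 TPM or more in both groups, against 64 of the 567 higher ones and 8505 of all 12821 tested entries. Among the 8505 entries with such means in both groups, fitted alone, 20 were called higher and 58 lower. Without APOE_H replicate 3 the total fell to 377 calls and without APOE_H replicate 1 to 429.

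**Figure D1:**
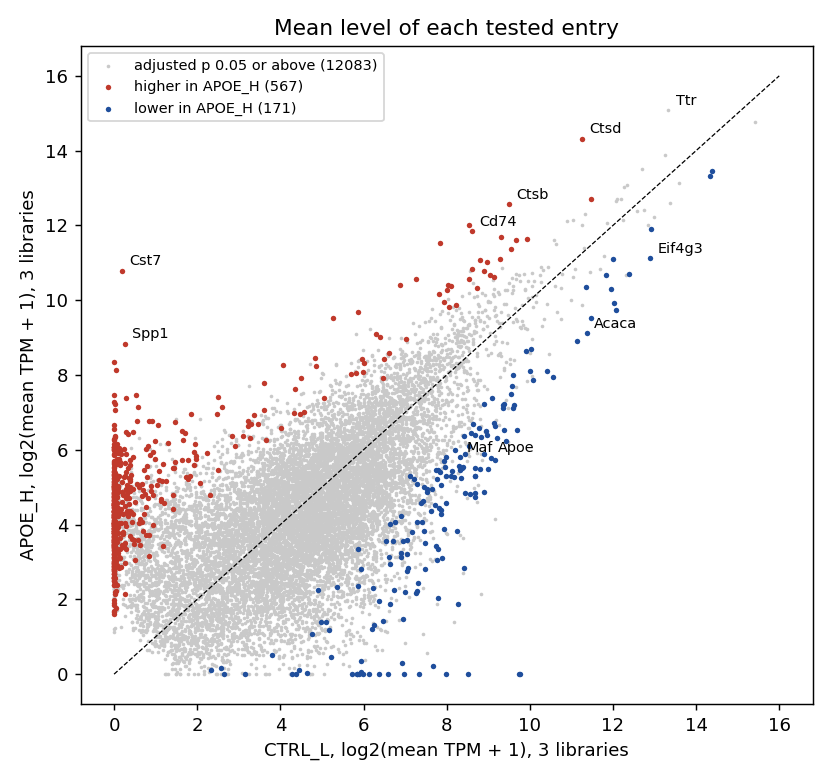
Mean level of each of the 12821 tested entries in CTRL_L (horizontal) and APOE_H (vertical), both as log2(mean TPM + 1) over 3 libraries, with the diagonal dashed. The 567 higher calls (red) crowd at the left edge where CTRL_L is near 0, while the 171 lower calls (blue) mostly have measurable levels in both groups. A mean of 5 TPM or more in both groups was reached by 122 of the lower calls and by 8505 of all 12821 entries.

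Apoe itself (ENSMUSG00000002985) fell. It was at 161.31, 888.79 and 555.28 TPM in CTRL_L and at 144.3, 6.49 and 12.39 TPM in APOE_H. The groups did not overlap, but APOE_H replicate 1 lay just under the lowest control, far above the other APOE_H libraries. The difference was -4.14 on the log2 scale (SE 0.86, adjusted p = 0.00918, limma), and the exact two-sided permutation test gave p = 0.1, the smallest 3 libraries against 3 allow. The call was lost when only the 6 libraries entered the fit (adjusted p = 0.0855, limma) and when no filter on low values was applied (adjusted p = 0.0658, limma). In the other groups Apoe was at 2772 ± 701 TPM (SD, n = 3) in KA_L, at 11947 ± 4146 TPM in KA_H and at 0.69, 0.71 and 0 TPM in APOE_L. APOE_H was thus below both KA groups and above APOE_L, with adjusted p = 0.000142 against KA_H and 0.0071 against APOE_L (limma).

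Of 13 tested genes of apolipoproteins, the Apoe locus and lipoprotein handling, 4 rose (4.42% of all entries did), 1, Apoe, fell and 8 did not pass, at a median difference of 3.06 against 0.47 over all entries. Apoc1, which lies beside Apoe on the chromosome and encodes a small lipoprotein component, was listed at 0 in every CTRL_L library and was at 40.75, 27.81 and 27.67 TPM in APOE_H (adjusted p = 0.0422, limma). Apoc4, of the same cluster, was at 0.09, 0.42 and 0.58 TPM in CTRL_L and at 99.01, 31.65 and 132.46 TPM in APOE_H (log2 difference 5.81, SE 1.55, adjusted p = 0.0355, limma), and its call was lost without any 1 of the 6 libraries. Apod, a lipocalin that carries lipids, was listed at 0 in CTRL_L and was at 15.51, 18.11 and 8.56 TPM in APOE_H (adjusted p = 0.00517, limma), a call lost under quantile normalization (adjusted p = 0.0639, limma; lowest over the alternatives 0.00295). Lpl, the lipase that releases fatty acids from lipoproteins, went from 0.35, 0.08 and 0.97 TPM to 129.11, 41.3 and 151.76 TPM, a rise of 6.05 (SE 0.87, adjusted p = 0.00113, limma). For all 4 genes each APOE_H library lay above each control. The filter fixed that order: with every control under 1 TPM, they were tested only because all 3 APOE_H libraries reached 1 TPM. Clu, a lipid-binding chaperone that is also abundant in choroid plexus, was at 0.03, 1194 and 740 TPM in CTRL_L and 1604 to 2021 TPM in APOE_H, and did not pass (adjusted p = 0.22, limma).

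The clearest pattern was in genes of the disease-associated microglial state. Apoe, which microglia also switch on in that response and which fell here, was counted with the apolipoproteins instead. Of 20 such genes, all tested, 17 rose (4.42% of all entries did) and none fell, with a median difference of 4.75 against 0.47 over all entries, and in 19 of them the groups did not overlap (16.9% of all entries were higher in this way). Part of that count was fixed by the filter. Cst7, Spp1, Clec7a, Gpnmb, Lpl and Igf1 were under 1 TPM in every control, so they were tested only because all 3 APOE_H libraries reached 1 TPM. Of all 12821 tested entries, 842 were under 1 TPM in all 3 controls. Cst7, an inhibitor of cathepsins, was at 0.21, 0.13 and 0.06 TPM in CTRL_L and at 1583.53, 1527.33 and 2188.76 TPM in APOE_H. All APOE_H libraries stood at the level of an abundant gene and all controls near 0, a difference of 10.59 (SE 0.52, adjusted p = 3.58e-09, limma). Spp1, the secreted phosphoprotein osteopontin, rose from 0.45, 0.12 and 0.04 TPM to 252.86, 289.78 and 824.99 TPM (8.37, SE 1.22, adjusted p = 0.00117, limma). Clec7a, which encodes the fungal glucan receptor dectin-1, rose from 0, 0 and 0.02 TPM to 477.83, 229.34 and 268.7 TPM (adjusted p = 0.00107, limma). These 3 genes were at or near 0 in untreated libraries and abundant in every APOE_H library.

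Other members of that set were already present in the controls. Cd9, a tetraspanin of the cell surface, rose from 1246.18, 488.24 and 509.46 TPM to 2937.77, 2467.58 and 2514.5 TPM, a difference of 1.96 (SE 0.35, adjusted p = 0.0037, limma). Cd63, a tetraspanin of late endosomes, rose from 393.67, 631.66 and 321.75 TPM to 1943.19, 2251.0 and 2256.61 TPM, a difference of 2.31 (SE 0.42, adjusted p = 0.00374, limma). Lyz2, the lysozyme of macrophages, rose from 596.87, 256.33 and 260.26 TPM to 6323.06, 3642.51 and 2490.49 TPM, a difference of 3.49 (SE 0.57, adjusted p = 0.00236, limma). In all 3 the lowest APOE_H library was above the highest control, though Cd9 and Cd63 lost their calls when the variance was not modelled on the mean level. Lgals3, Itgax, Csf1, Gpnmb, Fabp5, Axl, Lpl (given above) and the cathepsins Ctsb, Ctsd, Ctsl and Ctsz were the remaining genes that rose, Ctsl not without APOE_H replicate 1. The call of Axl, a receptor tyrosine kinase, was lost in 12 of 18 alternatives, among them without CTRL_L replicate 1 or 2 and without any 1 APOE_H library. Gpnmb, a glycoprotein of lysosome-rich macrophages, was uneven, with 54.79, 39.79 and 434.65 TPM in APOE_H, and its call was lost with no filter and without APOE_H replicate 3 (adjusted p from 0.0144 to 0.0936 over its alternatives, limma).

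Igf1, Ccl6 and Tyrobp did not pass. Igf1, a growth factor, was at 0.1, 0 and 0.06 TPM in CTRL_L and at 21.15, 48.0 and 47.36 TPM in APOE_H (adjusted p = 0.0531, limma). Tyrobp, the adaptor through which Trem2 signals, was at 7138, 3169 and 3631 TPM in CTRL_L and 6068 to 7231 TPM in APOE_H, so that the groups overlapped (adjusted p = 0.211, limma). The count of 17 moved to 11 with no filter on low values, to 11 when the variance was not modelled on the mean level, and to 6 of 11 genes when only entries at a mean of 5 TPM or more in both groups were fitted. Leaving out any 1 library left 12 to 16.

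**Figure D2:**
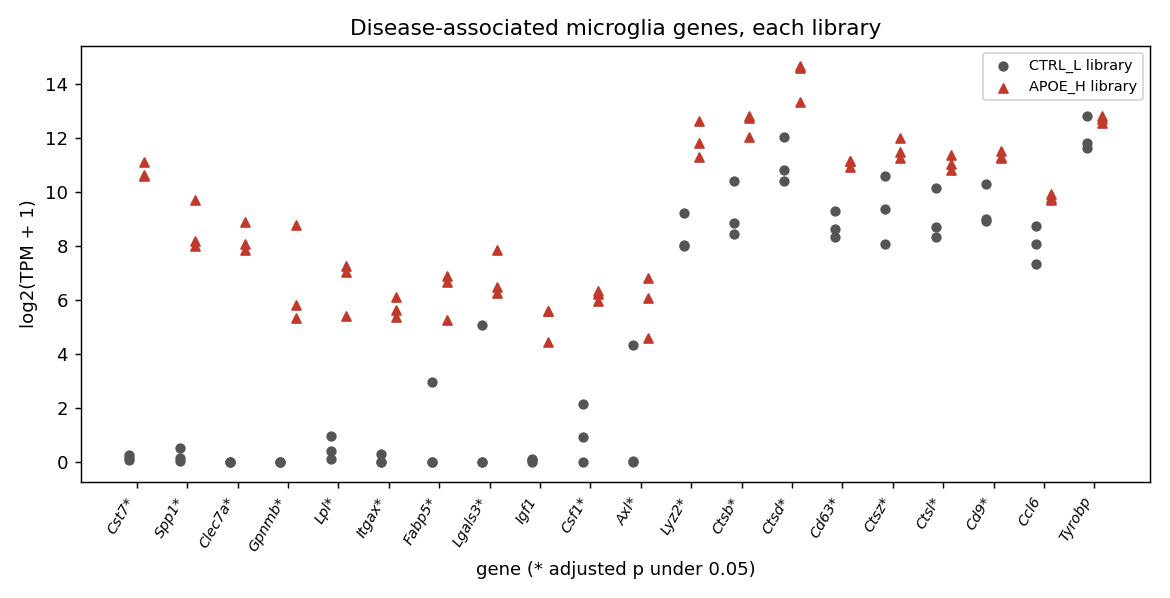
Level of the 20 disease-associated microglia genes in each library as log2(TPM + 1), with CTRL_L libraries as grey circles and APOE_H libraries as red triangles, ordered by difference. In 19 genes every triangle lies above every circle, and Tyrobp at the far right is the one in which they overlap.

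Resting microglia genes did not follow one direction. Of 18 tested, 1 rose (4.42% of all entries did), none fell, and the median difference was 0.25, against 0.47 over all entries. In 5 of them every APOE_H library lay below every control (9.13% of all entries did) and in 3 above (16.9% of all entries did, a share near that of 3 in 18). Trem2, the lipid-sensing receptor, was the one that rose, from 1006.33, 303.69 and 278.59 TPM to 1891.96, 1429.19 and 1566.12 TPM (1.88, SE 0.45, adjusted p = 0.0206, limma). Its call was lost in 9 of 18 alternatives, among them without CTRL_L replicate 2 or 3 and without APOE_H replicate 1 or 3 (adjusted p from 0.00296 to 0.147 over all 18, limma). The purinergic receptor P2ry12 was at 9372.88, 2397.89 and 3396.75 TPM in CTRL_L and at 2090.12, 1973.29 and 877.57 TPM in APOE_H, and the membrane protein Tmem119 at 352.42, 143.68 and 195.42 TPM and at 945.78, 413.16 and 467.17 TPM. Each P2ry12 value in APOE_H lay below each control and each Tmem119 value above, but neither passed (adjusted p = 0.0607 and 0.151, limma). Among 16 partners of Trem2 and Fc receptors, Trem2 alone was called. Among 16 transcription factors of microglia 1 fell (1.33% of all entries did) and none rose. It was Maf, which helps maintain macrophage identity, from 303.56, 242.46 and 405.65 TPM to 88.99, 60.77 and 14.19 TPM (-2.83, SE 0.59, adjusted p = 0.00881, limma). The Maf call was lost with the 6 libraries only (adjusted p = 0.068, limma).

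Of 30 lysosomal genes tested, 11 rose (4.42% of all entries did), none fell and 19 did not pass. The median difference was 1.65 against 0.47 over all entries, and in 21 every APOE_H library lay above every control (16.9% of all entries did). Of the 11, Ctsd, Ctsb, Ctsl and Ctsz are the calls already counted in the disease-associated list. Ctsd, the aspartic protease of lysosomes, was among the 5 most abundant entries of APOE_H. It was at 4208.81, 1355.16 and 1812.07 TPM in CTRL_L and at 24881.04, 10229.88 and 26090.13 TPM in APOE_H. Its lowest APOE_H library was more abundant than its highest control, and the difference was 3.11 (SE 0.40, adjusted p = 6.87e-04, limma). Ctsb, a cysteine protease, rose from 1343.23, 464.72 and 344.3 TPM to 7129.3, 4170.27 and 6840.35 TPM (3.29, SE 0.49, adjusted p = 0.00149, limma). Grn, the progranulin gene, rose from 524.28, 70.36 and 191.77 TPM to 1891.84, 712.66 and 1445.62 TPM (2.69, SE 0.62, adjusted p = 0.0167, limma), a call lost without CTRL_L replicate 2 or APOE_H replicate 1 or 3. Lamp1, the main glycoprotein of the lysosomal membrane, rose from 148.5, 367.29 and 251.15 TPM to 1626.79, 856.91 and 1220.96 TPM (2.31, adjusted p = 0.0168, limma). In these 4 genes the groups did not overlap.

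Ctsl, Ctsz and Ctsa (further proteases), Hexa and Gla (glycosidases), Psap (the precursor of the saposins, which help digest sphingolipids) and Laptm5 (a membrane protein of lysosomes in blood cells) were the other genes that rose, by 1.53 to 3.93. Lamp2 (777, 659 and 685 TPM in CTRL_L, 742, 813 and 788 TPM in APOE_H) and the cholesterol exporter Npc1 had differences of 0.15 and -0.06 and did not pass (adjusted p = 0.886 and 0.98, limma). None of 16 subunits of the proton pump that acidifies the lysosome was called, at a median difference of 0.87. An unadjusted p under 0.05 was reached by 2 of them (limma), and by 19.9% of all entries. In 8 every APOE_H library lay above every control (16.9% of all entries did). The lysosomal count depended on the samples: it was 2 without APOE_H replicate 1, 3 without APOE_H replicate 3, 5 without CTRL_L replicate 2, 6 without CTRL_L replicate 3 and 13 without CTRL_L replicate 1. It was also 4 with the 6 libraries only, 3 with no filter, 3 with no mean trend, 5 under quantile normalization, 7 with the filter set over all 15 libraries and 5 of 28 at means of 5 TPM or more, whereas Ctsd and Ctsb passed in all 18 alternatives.

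**Figure D3:**
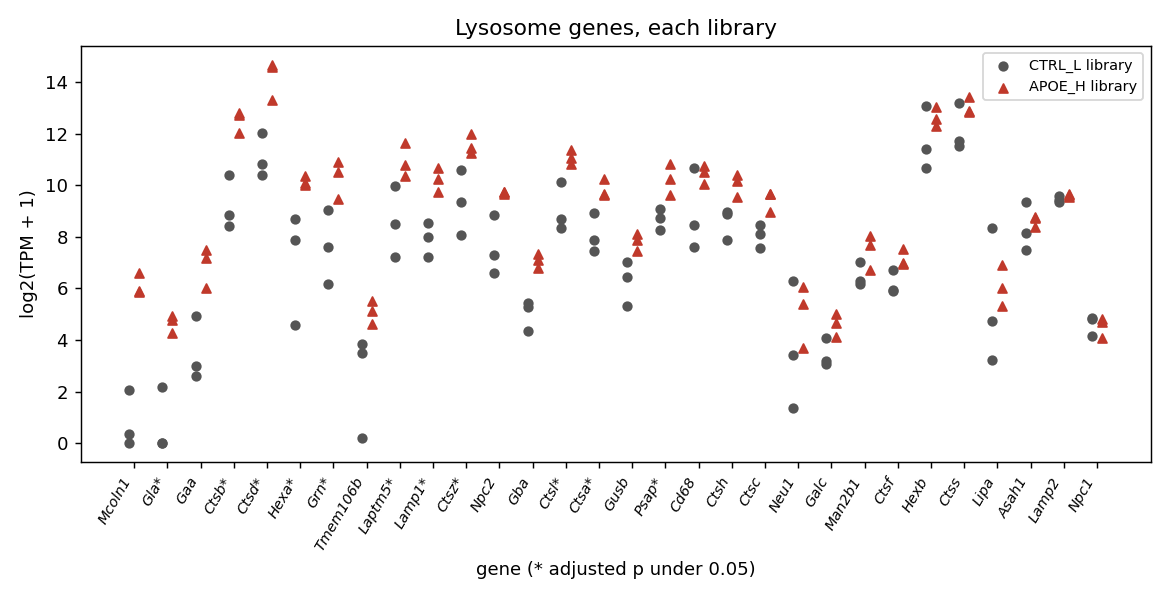
Level of the 30 lysosomal genes in each library as log2(TPM + 1), CTRL_L as grey circles and APOE_H as red triangles, ordered by difference, with an asterisk on the 11 genes that rose. Triangles lie above circles for most genes at the left, and the 2 overlap for Lamp2 and Npc1 at the right.

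Some promoters of these genes hold a sequence that the comparison did not use. Many lysosomal genes carry the palindrome CACGTG, the core of the site read by the transcription factor TFEB and its relatives, and also by other basic helix-loop-helix factors. In the RefSeq promoter windows (250 bases before to 50 after the start, build GRCm38.p6), the 6 letters were found in 8 of the 24 lysosomal genes with an entry (33.33%), against 8.09% of 27025 genes. Of the 10 genes that rose and had an entry, 5 held them: Ctsd, Ctsl, Ctsa, Lamp1 and Gla. The palindrome reads the same on both strands. The windows of Ctsd, Ctsl and Lamp1 are printed because these genes rose and differ in how often and where the letters occur. Of these 3, Ctsd alone was still called without APOE_H replicate 1. Capitals mark CACGTG, and each sequence runs 5′ to 3′ on the strand of its gene. Ctsd lies on the minus strand (chr7:142387778-142388077) with 2 copies, beginning 245 and 98 bases before the start. Ctsl is also on the minus strand (chr13:64370471-64370770), with 1 copy 236 bases before the start. Lamp1 is on the plus strand (chr8:13158911-13159210) with 4 copies, the first 61 bases before the start.
Ctsd: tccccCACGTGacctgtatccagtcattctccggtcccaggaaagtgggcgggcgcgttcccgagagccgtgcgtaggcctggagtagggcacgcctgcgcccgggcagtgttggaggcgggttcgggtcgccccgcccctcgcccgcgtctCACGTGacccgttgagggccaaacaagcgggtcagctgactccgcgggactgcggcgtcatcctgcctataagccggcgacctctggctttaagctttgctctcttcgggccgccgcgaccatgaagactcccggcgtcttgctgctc
Ctsl: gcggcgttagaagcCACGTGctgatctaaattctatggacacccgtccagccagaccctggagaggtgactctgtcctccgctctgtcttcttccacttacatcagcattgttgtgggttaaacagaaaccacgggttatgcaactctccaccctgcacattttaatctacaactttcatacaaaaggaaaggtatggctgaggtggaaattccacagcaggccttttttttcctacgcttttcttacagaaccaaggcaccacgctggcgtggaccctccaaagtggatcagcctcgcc
Lamp1: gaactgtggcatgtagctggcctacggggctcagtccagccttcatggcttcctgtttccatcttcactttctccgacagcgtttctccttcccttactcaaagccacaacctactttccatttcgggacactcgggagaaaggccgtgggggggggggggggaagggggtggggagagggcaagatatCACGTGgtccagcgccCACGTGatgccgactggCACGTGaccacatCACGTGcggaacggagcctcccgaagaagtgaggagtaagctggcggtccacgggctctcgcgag
A match describes the letters in the window only, and no binding was measured.

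A minority of antigen presentation genes passed. Of 18 tested genes of class I presentation 4 rose (H2-D1, H2-K1, H2-T23 and the chaperone Calr), and of 9 class II genes 2 rose (Cd74 and H2-Ab1), with medians of 2.73 and 2.93. None was called lower, 14 and 7 did not pass, and 1 gene in each list had a difference below 0. Over all entries 4.42% rose and the median was 0.47. H2-D1, a class I heavy chain, was at 299.36, 102.55 and 277.96 TPM in CTRL_L and at 3432.37, 1241.94 and 4193.2 TPM in APOE_H (3.67, SE 0.62, adjusted p = 0.00275, limma). Cd74, the chaperone of class II molecules, was at 136.51, 52.76 and 980.94 TPM in CTRL_L and at 3659.09, 2954.93 and 4470.98 TPM in APOE_H (4.23, SE 0.93, adjusted p = 0.012, limma). Every APOE_H library exceeded every control in both genes, and among controls Cd74 was highest in replicate 3. The Cd74 call was lost without CTRL_L replicate 2, without APOE_H replicate 3 and with no filter, and H2-Ab1 was lost in 12 of 18 alternatives, including without any single library other than CTRL_L replicate 3. H2-D1 passed in all 18, whereas H2-K1 was lost without CTRL_L replicate 2 or APOE_H replicate 1 or 3, and H2-T23 and Calr without CTRL_L replicate 2 or any APOE_H library (Calr also without CTRL_L replicate 3). Class I and class II genes belong to families of near-identical copies, so reads may be split between them. B2m, the light chain of class I, was at 6870.74, 8040.56 and 4954.56 TPM in CTRL_L and at 13951.65, 9127.17 and 12169.02 TPM in APOE_H and did not pass (adjusted p = 0.0573, limma).

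Innate immune genes gave scattered calls, to be read against the 4.42% of all entries that rose. Of 22 tested interferon-response genes 3 rose (Ifitm3, Ifi204 and Ifit2), at a median of 3.43. Ifitm3, a membrane protein that restricts virus entry, was at 0.13, 57.22 and 54.44 TPM in CTRL_L and at 829.81, 582.69 and 802.34 TPM in APOE_H (5.57, SE 1.08, adjusted p = 0.00589, limma). The groups were far apart in Ifitm3, and only the fits with no filter or with the 6 libraries alone lost the call. Complement genes C3, Serping1 and Cd55 rose among 14 tested. The central component C3 was at 0.03, 0 and 0 TPM in CTRL_L and at 4.15, 14.46 and 12.34 TPM in APOE_H (adjusted p = 0.02, limma). The chemokine Cxcl10 was at 0.06, 0 and 0 TPM in CTRL_L and at 97.12, 20.29 and 331.13 TPM in APOE_H (adjusted p = 0.0462, limma), and Ccrl2 also rose among 12 chemokine genes. The cytokine Osm rose among 11, and Myd88, the adaptor of toll-like receptors, and Tlr2 rose among 15. Calls of C3 were lost without CTRL_L replicate 2 or APOE_H replicate 2 or 3, those of Cxcl10, Ifit2 and Serping1 without any 1 library, and those of Myd88 and Ifi204 without APOE_H replicate 1 or 3. Cd55, Ccrl2, Osm and Tlr2 lost theirs without any 1 APOE_H library and without CTRL_L replicate 3 (Cd55 and Osm also without replicate 1, Ccrl2 and Tlr2 also without replicate 2).

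Lipid and iron metabolism contained one of the clearest decreases. Acaca, the enzyme that commits acetyl-CoA to fatty acid synthesis, was at 2695.88, 2318.24 and 2890.12 TPM in CTRL_L and at 577.41, 558.02 and 530.74 TPM in APOE_H. The libraries within each group were close and the groups far apart, a fall of 2.24 on the log2 scale (SE 0.24, adjusted p = 3.25e-04, limma) that passed in all 18 alternatives. In the same list of 20 lipid droplet and fatty acid genes, Acaca alone fell (1.33% of all entries did) and 4 rose (4.42% did). The list median was 2.15 against 0.47 over all entries. Those that rose were the droplet coat protein Plin3, the acyl-CoA ligase Acsl3, the fatty acid transporter Cd36 and the binding protein Fabp5. Cd36 was listed at 0 in CTRL_L and was at 15.01, 24.35 and 15.97 TPM in APOE_H (adjusted p = 0.0273, limma), a call lost without any 1 library, while Acsl3 lost its call without APOE_H replicate 3 and Plin3 without CTRL_L replicate 2 or 3 or APOE_H replicate 1 or 3. Ch25h, which makes 25-hydroxycholesterol, and Nceh1, a cholesterol ester hydrolase, were the 2 that rose among 25 cholesterol genes, at a list median of 1.53. Ch25h was listed at 0 in CTRL_L and was at 51.36, 10.36 and 63.68 TPM in APOE_H (adjusted p = 0.0116, limma), and the call was lost without APOE_H replicate 1 or 3, that of Nceh1 without any 1 library. Of 11 iron genes 3 rose, at a median of 1.32, among them the metal transporter Slc11a2. Fth1, the ferritin heavy chain, went from 4175.3, 1711.36 and 2617.15 TPM to 7210.62, 6608.79 and 6078.32 TPM (1.32, SE 0.30, adjusted p = 0.0166, limma), and the iron carrier Trf from 359.12, 242.22 and 221.24 TPM to 1304.15, 1103.3 and 1552.04 TPM (2.28, SE 0.50, adjusted p = 0.0118, limma). Neither overlapped between groups. Fth1 lost its call without CTRL_L replicate 2 or APOE_H replicate 1 or 2, Trf without APOE_H replicate 3, and Slc11a2 without CTRL_L replicate 2 or 3 or APOE_H replicate 3.

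Few mitochondrial genes passed. Of 54 tested nuclear genes of the respiratory chain, Cox4i1 alone passed (458.47, 329.67 and 316.76 TPM to 1086.09, 1636.3 and 1843.18 TPM, 2.03, SE 0.42, adjusted p = 0.00828, limma; lost with no mean trend), while 4.42% of all entries rose. All 54 had differences above 0, with a median of 1.04, as did 7739 of the 12821 entries. Under quantile normalization 53 of the 54 were above 0, and after rescaling to protein-coding genes 52. Of 12 tested mitochondrially encoded genes, 11 had differences below 0, with a median of -0.80, and 2 fell (1.33% of all entries did). mt-Atp6, a subunit of the ATP synthase, was at 12546.83, 23614.98 and 26102.05 TPM in CTRL_L and at 6906.74, 13521.9 and 10004.92 TPM in APOE_H (-1.02, SE 0.27, adjusted p = 0.0358, limma), and mt-Nd1, of complex I, fell by 1.02 (adjusted p = 0.0418, limma). The mt-Atp6 values overlapped, with CTRL_L replicate 1 below APOE_H replicate 2. Both calls were lost without CTRL_L replicate 2 or 3 and without APOE_H replicate 1 or 3, while 6 of the 12 genes were called lower without CTRL_L replicate 1. Gm28437, annotated as a pseudogene and among the 5 most abundant entries of CTRL_L, fell as well (-0.91, adjusted p = 0.0483, limma), but kept its call in 5 of 18 alternatives, losing it among others without CTRL_L replicate 2 or 3 and without APOE_H replicate 1 or 3 (adjusted p up to 0.462, limma). Its sequence resembles mitochondrial genes, so its level is uncertain.

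Other housekeeping and stress groups showed few calls. Of 60 cytosolic ribosomal protein genes 3 rose (4.42% of all entries did), among them Rps25 and Rpl19, at a median of 0.84, with processed pseudogenes making these levels uncertain. Rps25 and Rpl19 lost their calls without CTRL_L replicate 2 or any 1 APOE_H library (Rpl19 also without CTRL_L replicate 1). Glycolysis and pentose phosphate genes had a median of 2.23, and 1 of 24, Gapdh, passed (577.65, 328.35 and 270.15 TPM to 1360.02, 1895.05 and 2188.1 TPM, adjusted p = 0.0493, limma). The Gapdh call was lost in 13 of 18 alternatives, among them without any single library other than CTRL_L replicate 1. Of 25 antioxidant genes Mgst1, a microsomal glutathione transferase, and Srxn1, the sulfiredoxin, rose. Both were listed at 0 in all CTRL_L libraries. Mgst1 was at 86.28, 73.69 and 116.83 TPM in APOE_H (adjusted p = 0.00167, limma) and Srxn1 at 22.67, 9.88 and 18.25 TPM (adjusted p = 0.00362, limma), and both passed in the 17 alternatives in which they could be tested. None of 30 proteasome genes, 16 heat shock genes, 13 ion channel and glutamate genes or 23 splicing and chromatin genes was called. An unadjusted p under 0.05 was reached by 7, 4, 4 and 1 of them (limma), and by 19.9% of all entries. Of 17 immediate early genes, which neurons and other cells switch on within minutes of stimulation, Ier3 alone rose (0.06, 0 and 2.34 TPM to 162.49, 78.26 and 86.21 TPM, adjusted p = 0.02, limma), a call lost without CTRL_L replicate 2 or any APOE_H library.

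**Figure D4:**
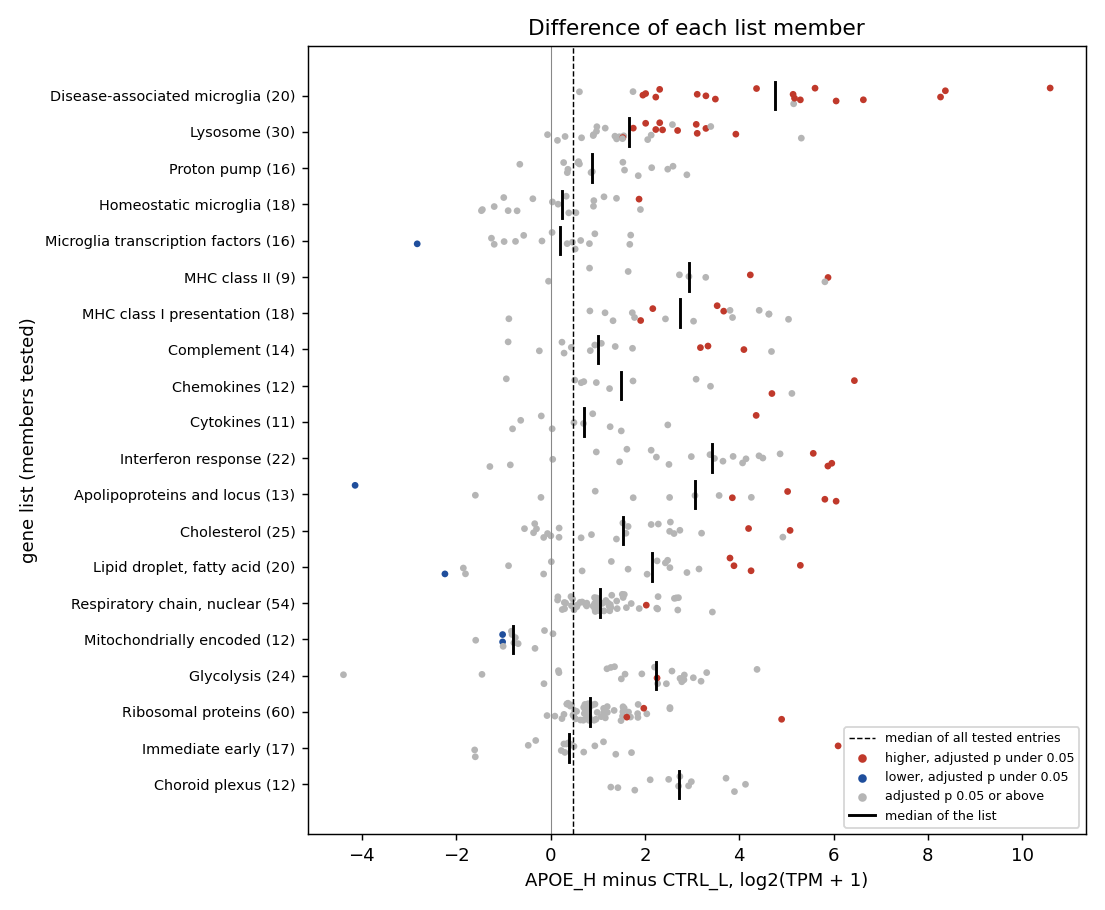
Difference (APOE_H minus CTRL_L on log2(TPM + 1)) of each tested member of 20 gene lists, with members that passed in red (higher) or blue (lower), the rest in grey, the list median as a black bar and the median over all entries, 0.47, dashed. The disease-associated list has the highest median, 4.75, and the mitochondrially encoded list the lowest, -0.80.

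Among genes with a symbol, at a mean of 5 TPM or more in APOE_H and with no overlap, the largest rises included several that were near 0 in the controls. Capg, an actin-capping protein of macrophages, was listed at 0 in CTRL_L and was at 113.46, 87.8 and 265.01 TPM in APOE_H (adjusted p = 0.00563, limma). Cyb561, a transmembrane electron carrier, went from 0.06, 0 and 0 TPM to 111.6, 117.06 and 170.16 TPM (7.01, SE 0.98, adjusted p = 9.42e-04, limma). Both were listed at or near 0 in the controls and well detected in every APOE_H library. The filter and the choice of genes without overlap fixed that order. With every control under 1 TPM, both were tested only because all 3 APOE_H libraries reached 1 TPM. Ly6a, Dpp7 and Hax1 were also among the genes with the largest rises, and the Ly6a call, in a family of similar genes, was lost without CTRL_L replicate 2 or any APOE_H library, that of Dpp7 without APOE_H replicate 1 or 3. Mfge8, which bridges dying cells to phagocytes, went from 0, 0 and 0.05 TPM to 52.1, 68.94 and 120.41 TPM (6.24, SE 0.86, adjusted p = 9.42e-04, limma). It was 1 of 3 that rose among 18 phagocytosis and purinergic genes (4.42% of all entries did). Among genes measurable in both groups, Lgals3bp (a secreted galectin-3 binding protein), the activation marker Cd83 and the membrane glycoprotein Bsg rose by 3.45, 4.35 and 2.38. Bsg was at 567.21, 813.2 and 509.42 TPM in CTRL_L and at 2349.8, 3920.08 and 3640.6 TPM in APOE_H (SE 0.46, adjusted p = 0.00577, limma), with no overlap, and lost its call with no mean trend.

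Among genes with a symbol, at a mean of 5 TPM or more in CTRL_L and with no overlap, the largest falls were mostly of genes listed at or near 0 in APOE_H. Snord13, a small nucleolar RNA, was at 537.47, 445.76 and 102.02 TPM in CTRL_L and listed at 0 in APOE_H (adjusted p = 0.0105, limma). Adcy8, a calcium-stimulated adenylyl cyclase, fell from 154.51, 158.21 and 300.37 TPM to 0.14, 0.3 and 0.05 TPM (-7.40, SE 1.61, adjusted p = 0.0115, limma). Tle2, a corepressor, was at 71.62, 64.06 and 34.74 TPM in CTRL_L and listed at 0 in APOE_H (adjusted p = 0.00153, limma). These 3 genes were detected in each control and in almost no APOE_H library. The filter and the choice of genes without overlap fixed that order. With every APOE_H library under 1 TPM, they were tested only because all 3 controls reached 1 TPM. Atxn1, the ataxin gene, fell from 248.99, 417.42 and 352.25 TPM to 13.89, 4.7 and 0 TPM (-6.24, SE 1.16, adjusted p = 0.00439, limma). Rgs7bp, Gm11032, Adgrl2, Gng7, Astn2 and Flvcr1 made up the rest of the 10 largest falls chosen in this way, of which Astn2 alone kept its call in all 17 alternatives that could test it. The rest each lost theirs without APOE_H replicate 2 and without APOE_H replicate 3, and those apart from Gng7 also without CTRL_L replicate 2.

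Several abundant genes fell. Eif4g3, a scaffold of translation initiation, went from 5305.21, 9527.69 and 7999.4 TPM to 2375.25, 2183.56 and 2125.68 TPM (-1.73, SE 0.21, adjusted p = 6.27e-04, limma). Ube2g2, a ubiquitin-conjugating enzyme of the endoplasmic reticulum, went from 974.51, 1109.32 and 1149.69 TPM to 282.62, 209.65 and 209.54 TPM (-2.21, SE 0.29, adjusted p = 6.87e-04, limma). Mllt6, a chromatin reader, went from 2595.77, 5843.29 and 4588.54 TPM to 904.61, 613.18 and 1044.53 TPM (-2.30, SE 0.30, adjusted p = 6.87e-04, limma). In each of them the 3 APOE_H libraries were close together and below all controls. Group means of all 3 genes were highest in KA_L and APOE_L, then CTRL_L, then KA_H, and lowest in APOE_H. The share of assembled loci ran likewise, and its part in these falls was not tested. Kctd12, Mgat5, Diaph2, Gm33053 and Arl15 fell by 2.52 to 4.43, and all 5 passed in all 18 alternatives, whereas Eif4g3 and Mllt6 lost their calls when the variance was not modelled on the mean (adjusted p = 0.124 and 0.0577, limma).

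Markers of other cell types were read beside these results. The 12 choroid plexus genes, among them Ttr, which exports thyroid hormone into the cerebrospinal fluid, summed to 139, 39718 and 24215 TPM in CTRL_L and to 38583, 58920 and 59380 TPM in APOE_H. CTRL_L replicate 1 thus stood apart from the other 5 libraries. None of the 12 was called and 4 had an unadjusted p under 0.05 (limma), as did 19.9% of all entries. Their median was 2.73 and it was 0.65 without that library, while 3 were called higher without CTRL_L replicate 2. Ttr and Enpp2 were nevertheless among the 5 most abundant entries of APOE_H. Of 9 border macrophage and monocyte markers, 7 were tested and 2 rose (4.42% of all entries did), at a median of 3.27 against 0.47 over all entries. The 2 were Pf4 (0, 0 and 14 TPM to 115.24, 354.48 and 35.4 TPM, adjusted p = 0.017, limma) and Ms4a7 (0.16, 0.01 and 0.01 TPM to 80.78, 58.2 and 38.15 TPM, adjusted p = 0.0192, limma). The 9 markers summed to 1.2 to 105 TPM in CTRL_L and 223 to 586 TPM in APOE_H, and Lyve1 was listed at 0 in all 6. Neither Pf4 nor Ms4a7 was called without APOE_H replicate 1 or 2. Without CTRL_L replicate 2 only 1 of the 2 was called, and likewise without APOE_H replicate 3. Neutrophil markers were listed at 0 in all of the 6 libraries other than APOE_H replicate 2, where S100a8 was at 485.31, S100a9 at 355.96 and Ngp at 297.36 TPM. The part of these cells in the rises was not tested. Without APOE_H replicate 2, 13 of the 20 disease-associated genes and 8 of the 30 lysosomal genes were called higher, and without CTRL_L replicate 1, 16 and 13. These fits cannot set such cells apart, because choroid plexus and border macrophage markers were also present in the remaining APOE_H libraries. Red cell genes summed to 0.1 to 126 TPM in CTRL_L and 43.7 to 749 TPM in APOE_H, with 0 of 4 called and 1 at an unadjusted p under 0.05 (limma). No astrocyte, neuron, oligodendrocyte, endothelial, mural, lymphocyte or ependymal marker was called, and 0 to 3 per list had an unadjusted p under 0.05 (limma).

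APOE_H was also set against the 2 groups that share its letter or its APOE name. Of the same entries, 106 (0.827%) were called against KA_H, 89 of them higher, and 1424 (11.1%) against APOE_L, 1144 of them higher (limma). These comparisons share the APOE_H libraries with the one against CTRL_L, so they are given side by side. Ctsd was higher than in each: 2.19 above KA_H (4974.78, 3721.44 and 3803.38 TPM, adjusted p = 0.00996, limma) and 3.28 above APOE_L (2056.94, 1523.54 and 2321.17 TPM, adjusted p = 3.2e-04, limma). Acaca was lower than in each, at 1463.27, 2088.98 and 1421.63 TPM in KA_H (-1.55, adjusted p = 0.00333, limma) and at 2813.8, 2395.32 and 3243.37 TPM in APOE_L (-2.33, adjusted p = 9.13e-05, limma). Eif4g3, Ube2g2, Mllt6 and the pseudogene 2810025M15Rik were called lower, and Fah, Tmem184a, Asf1b and Rd3 higher, in all 3 comparisons. Fah, the last enzyme of tyrosine breakdown, was at 13.61, 15.83 and 15.63 TPM in APOE_H and listed at 0 in all 12 other libraries.

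For the disease-associated genes the picture against KA_H was different. Cst7 was at 1323.25, 1287.01 and 2181.04 TPM in KA_H, a difference of 0.17 from APOE_H (SE 0.52, adjusted p = 0.96, limma), and in APOE_L at 1397.86, 318.04 and 644.35 TPM (1.40, SE 0.52, adjusted p = 0.0945, limma). Of the 20 genes, 1 (Ctsd) was called higher than in KA_H and 6 higher than in APOE_L. Of 30 lysosomal genes, 1 was called higher than in KA_H and 13 higher than in APOE_L, against backgrounds of 0.694% and 8.92% of all entries. All 12 choroid plexus genes were called higher than in APOE_L, where they summed to 126 to 297 TPM, against 33557 to 41764 TPM in KA_H and 38583 to 59380 TPM in APOE_H, and their part in the calls against APOE_L was not tested. A p above the threshold does not show that APOE_H and KA_H were alike. Against KA_H, 3 of the 12 mitochondrially encoded genes were called lower and none higher (background 0.133%), and against APOE_L 7 were lower (background 2.18%).

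**Figure D5:**
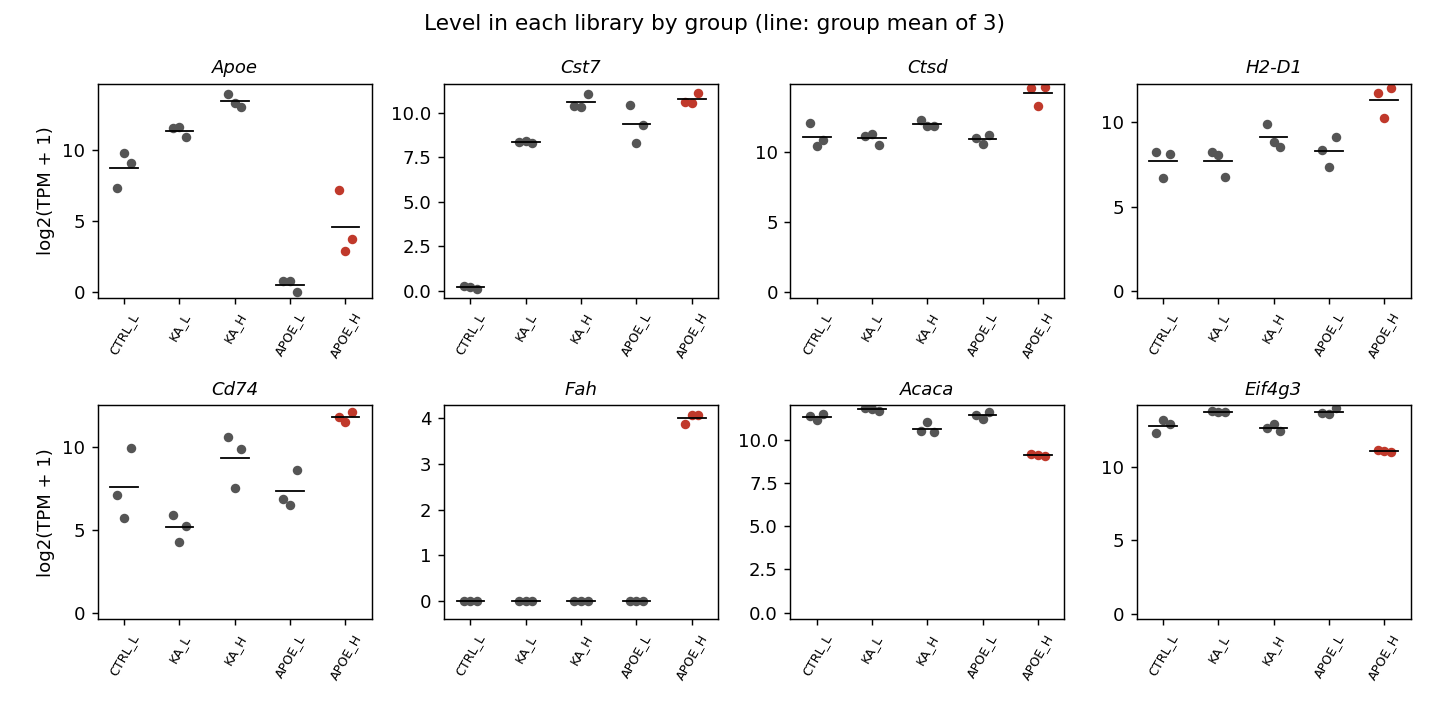
Level of 8 genes in each library of the 5 groups as log2(TPM + 1), APOE_H in red, with a line at the mean of the 3 log values. Ctsd and H2-D1 are highest and Acaca and Eif4g3 lowest in APOE_H, Fah is above 0 in APOE_H only, Cst7 is near 0 in CTRL_L alone, and Apoe is near 0 in APOE_L.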

How the data were processed

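Mouse brain RNA was extracted with Trizol and made into TruSeq libraries, per the labels' protocols. The values deposited by the authors were TPM. STAR and the build GRCh38 are named in the submitters' processing notes; that build is human, whereas the identifiers in the table are mouse Ensembl genes. For the quantifier, the annotation and the strand of counting, the answer is not given in the sources used here. TPM keeps no depth, so read numbers and counting intervals are unknown and no count model was used.

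Groups came from the library titles, which give treatment, letter and replicate. An entry was tested where 3 or more of the 6 compared libraries had 1 TPM or above. Where all 3 libraries of a group were under 1 TPM, the groups of a tested entry therefore could not overlap. limma 3.58.1 in R 4.3.3 was fitted to log2(TPM + 1) in all 15 libraries with 5 group means, a mean-variance trend and 10 residual degrees of freedom, with Benjamini-Hochberg adjustment over all 12821 entries. Differences on this scale understate the change of low genes. The fit was tested on simulated data. Symbols came from GENCODE M21 (GRCm38) by identifier, matching 52083 of 55416, and promoters from RefSeq. No 2 libraries held identical values.

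Named genes were Apoe; up to 10 per direction with the largest difference and up to 10 with the smallest p, without overlap between groups and at means of 5 TPM or more; per list up to 4 called, or the 2 most abundant; the 5 most abundant per group; and up to 5 per direction called against CTRL_L, KA_H and APOE_L. Other list members were named after their values were seen. The members, lists and tests were chosen with earlier results of these data known. Every result was recomputed under 17 other settings and 1 more chosen after seeing the data. Results for some named genes are not reported here.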

Additional observations from a re-analysis of the deposited data

How the results depend on the processing

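The count of 738 called entries was 340 with no filter, 453 under quantile normalization and 78 when only entries at a mean of 5 TPM or more in both groups were fitted, an alternative chosen after seeing the data. Leaving out 1 library gave 377 (without APOE_H replicate 3) to 814 (without CTRL_L replicate 1). Under quantile normalization 246 were higher and 207 lower (54.3% higher, against 76.8%), and the median of all entries moved from 0.47 to -0.06; upper-quartile scaling moved it to 0.66. The Apoe difference stayed at -4.14 but lost its call with no filter (adjusted p = 0.0658, limma) and with the 6 libraries only (adjusted p = 0.0855, limma), and ranged from -5.43 to -3.29 when 1 library was left out. Of 128 named genes 98 were called, 50 with no filter, 30 at means of 5 TPM or more and 54 to 84 without 1 library; 33 of the 98 passed in every alternative that could test them. With no filter more entries were tested, and at means of 5 TPM or more fewer; for the other changes the cause was not tested. Genes with no call reversed sign: Syt1 (-2.76 to 0.05), Clic1 (-0.54 to 1.02) and Ly6c1 (-1.16 to 2.02) when 1 library was left out, and Foxj1 (-0.39) under quantile normalization. With the replicate number as a block 654 entries were called, Apoe was at -4.14 (adjusted p = 0.0139, limma) and 93 named genes passed. Deviations of same-numbered libraries correlated at 0.025, -0.011 and 0.025, and those of differently numbered libraries at -0.039 to 0.013. Values this near 0 show no pairing by number but cannot exclude a weak one, and the labels do not state pairs. TPM keeps no depth, so the precision of low values is unknown.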

Other observations

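Some genes were detected in APOE_H and in no other group. A search made after the values were seen asked for 5 TPM or more in all 3 libraries of a group and under 1 TPM in the other 12. It returned 21 entries for APOE_H (16 of them protein-coding), 5 for KA_H, 1 for CTRL_L and none for KA_L or APOE_L. Fah, Rd3, Fcmr (the receptor for IgM) and Mdh1b were listed at 0 in all 12 other libraries. Fcmr was at 7.34, 27.25 and 9.18 TPM in APOE_H, and Mdh1b, a cytosolic malate dehydrogenase relative, at 11.95, 11.06 and 7.36 TPM. Mc3r, a melanocortin receptor, was at 10.48, 11.92 and 7.81 TPM, and at most 0.02 TPM elsewhere. Asf1b, a histone chaperone of replicating cells, was at 11.94, 15.23 and 17.52 TPM in APOE_H and at most 0.37 TPM elsewhere. These levels are low, the reads behind them are unknown, and because the search chose the genes on the values no test is given.

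The reverse search, under 1 TPM in every library of a group and 5 TPM or more in all of the others, returned 1 entry for APOE_H, an identifier without a symbol (ENSMUSG00002076817), 6 for KA_L, none for KA_H, 4 for CTRL_L, namely Lpl, Spp1, Cst7 and the predicted gene Gm14586, and 4 for APOE_L, one of which was Apoe.

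Nt5e, the ectoenzyme that makes adenosine from AMP, was at 4.56, 13.44 and 4.95 TPM in APOE_H and at most 0.04 TPM in the other libraries. It was called higher against CTRL_L, KA_H and APOE_L (adjusted p = 0.00231, 0.00477 and 0.00189, limma), and Adora2b, a receptor for adenosine, rose from a listed 0 in CTRL_L to 6.4, 11.34 and 27.41 TPM (adjusted p = 0.00612, limma). Both lost the call against CTRL_L under quantile normalization. Against CTRL_L, 9 of 11 adenosine genes were not called, while 4.42% of all entries rose.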
